A study of Mus musculus with 26 samples.

Results

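A set of 10 imprinted genes was followed across mouse embryonic stem cells (ESCs) that lacked or carried the nuclear receptor ERR beta. The genes were H19, Igf2, Peg3, Usp29, Plagl1, Nnat, Grb10, Meg3, Mirg and Rtl1. They were taken by symbol from the 24421 genes of the table, and all 10 passed the filter on low counts. RNA-seq counts came from 26 libraries of 14 clones, with 2 clones in each of 7 groups. All cells were ESCs seeded at 1600 cells and given doxycycline at 2 µg/ml for 3 days. Every group but WT_mock had the genotype ERR beta -/-. KO_ERRb_AF2M6 cells expressed a coactivator-binding deficient ERR beta, KO_ERRb_DBDm6 cells a TFIIH-binding deficient ERR beta, and KO_ERRb_DBDm3 cells a DNA-binding deficient ERR beta. KO_ERRg_wt cells expressed wild-type ERR gamma, KO_ERRb_wt cells expressed wild-type ERR beta, and KO_mock cells expressed neither. WT_mock cells were wild type with no receptor added. Each clone gave 2 libraries, except the KO_ERRg_wt clones with 1 library each, and the clone was the unit of replication (n = 2 per group). Values of a clone are given below in the order of the clone numbers, which are 32-25 and 32-31 for KO_ERRb_AF2M6, 10-24 and 10-26 for KO_ERRb_DBDm6, 9-6 and 9-8 for KO_ERRb_DBDm3, 14-1-10 and 14-11 for KO_ERRg_wt, 8-3 and 8-4 for KO_ERRb_wt, 12-1 and 12-3 for KO_mock, and 5-2 and 5-5 for WT_mock.

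Imprinted genes are expressed from 1 parental allele, set by DNA methylation that is laid down in the egg or the sperm and kept through embryonic cell divisions. In cultured ESCs this methylation can be lost or gained, and the change is then inherited by all descendants of that cell, so clones can differ. The reads were not assigned to parental alleles, so the values below are total RNA levels per gene.

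Library totals ran from 21276790 to 30021667 counts. Esrrb itself was at 416 to 567 CPM, counts divided by the library's total and put on 1 scale, in the groups given an ERR beta construct. It was at 470 and 477 CPM in KO_ERRg_wt, at 267 to 281 CPM in KO_mock and at 562 to 636 CPM in WT_mock. The labels name no ERR beta construct for KO_ERRg_wt, and the source of its Esrrb reads was not tested. The counts do not separate the endogenous gene from a construct and the labels do not place the deletion, so they do not check the genotype. Esrrg was at 126 and 229 CPM in the KO_ERRg_wt libraries and at most 0.384 CPM in any other library. The 6 ESC markers summed to 2674 to 3522 CPM in every clone. Among markers of other cells, some were scarcely detected. The fibroblast genes Lum and Dcn were at most 0.0422 CPM and the primitive endoderm genes Gata6 and Sox17 at most 0.479 CPM. The trophoblast gene Elf5 was at most 0.0228 CPM. These genes do not stand for their lists, whose other members were expressed, as the sums show. The summed fibroblast list, mostly Vim, was at 140 to 272 CPM in knockout-derived clones and at 87.0 to 105 CPM in WT_mock clones, with 5 of its 10 genes passing the filter. The primitive endoderm list, mostly Sparc, was at 126 to 495 CPM in knockout-derived clones and at 296 to 316 CPM in WT_mock clones. The trophoblast list was at 50.8 to 188 CPM in knockout-derived clones and at 71.2 to 72.6 CPM in WT_mock clones. All ERR beta mutant clones were above WT_mock for it, at 116 to 188 CPM, as were both KO_ERRg_wt clones, at 100 and 109 CPM. Both KO_ERRb_wt clones, at 63.5 and 56.7 CPM, and both KO_mock clones were below. The mesoderm list, mostly T, was at 8.52 to 69.2 CPM in knockout-derived clones and at 16.7 to 24.8 CPM in WT_mock clones. The part of these lists in the results below was not tested.

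Of the 10 genes, 5 were among the most variable of the 15238 tested genes, ranked by the standard deviation (SD) of log2 CPM over the 14 clones. H19 had rank 2 with an SD of 2.89, Nnat rank 60 with 1.72, Grb10 rank 71 with 1.69, Usp29 rank 159 with 1.44 and Plagl1 rank 388 with 1.19, against a median SD of 0.31 over all genes. Peg3 (0.51), Meg3 (0.43) and Mirg (0.37) had the lowest SDs of the 10, each above that median. Per kilobase of exon, the mean level over the 14 clones was 47.3 CPM for Peg3, 36.4 for Mirg and 12.7 for Meg3. It was 7.81 CPM per kilobase for Grb10, 4.28 for Plagl1, 4.15 for H19, 3.64 for Nnat and 2.10 for Usp29. Igf2 and Rtl1 were scarcely detected, at 0.122 and 0.0856 CPM per kilobase.

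**Figure D1:**
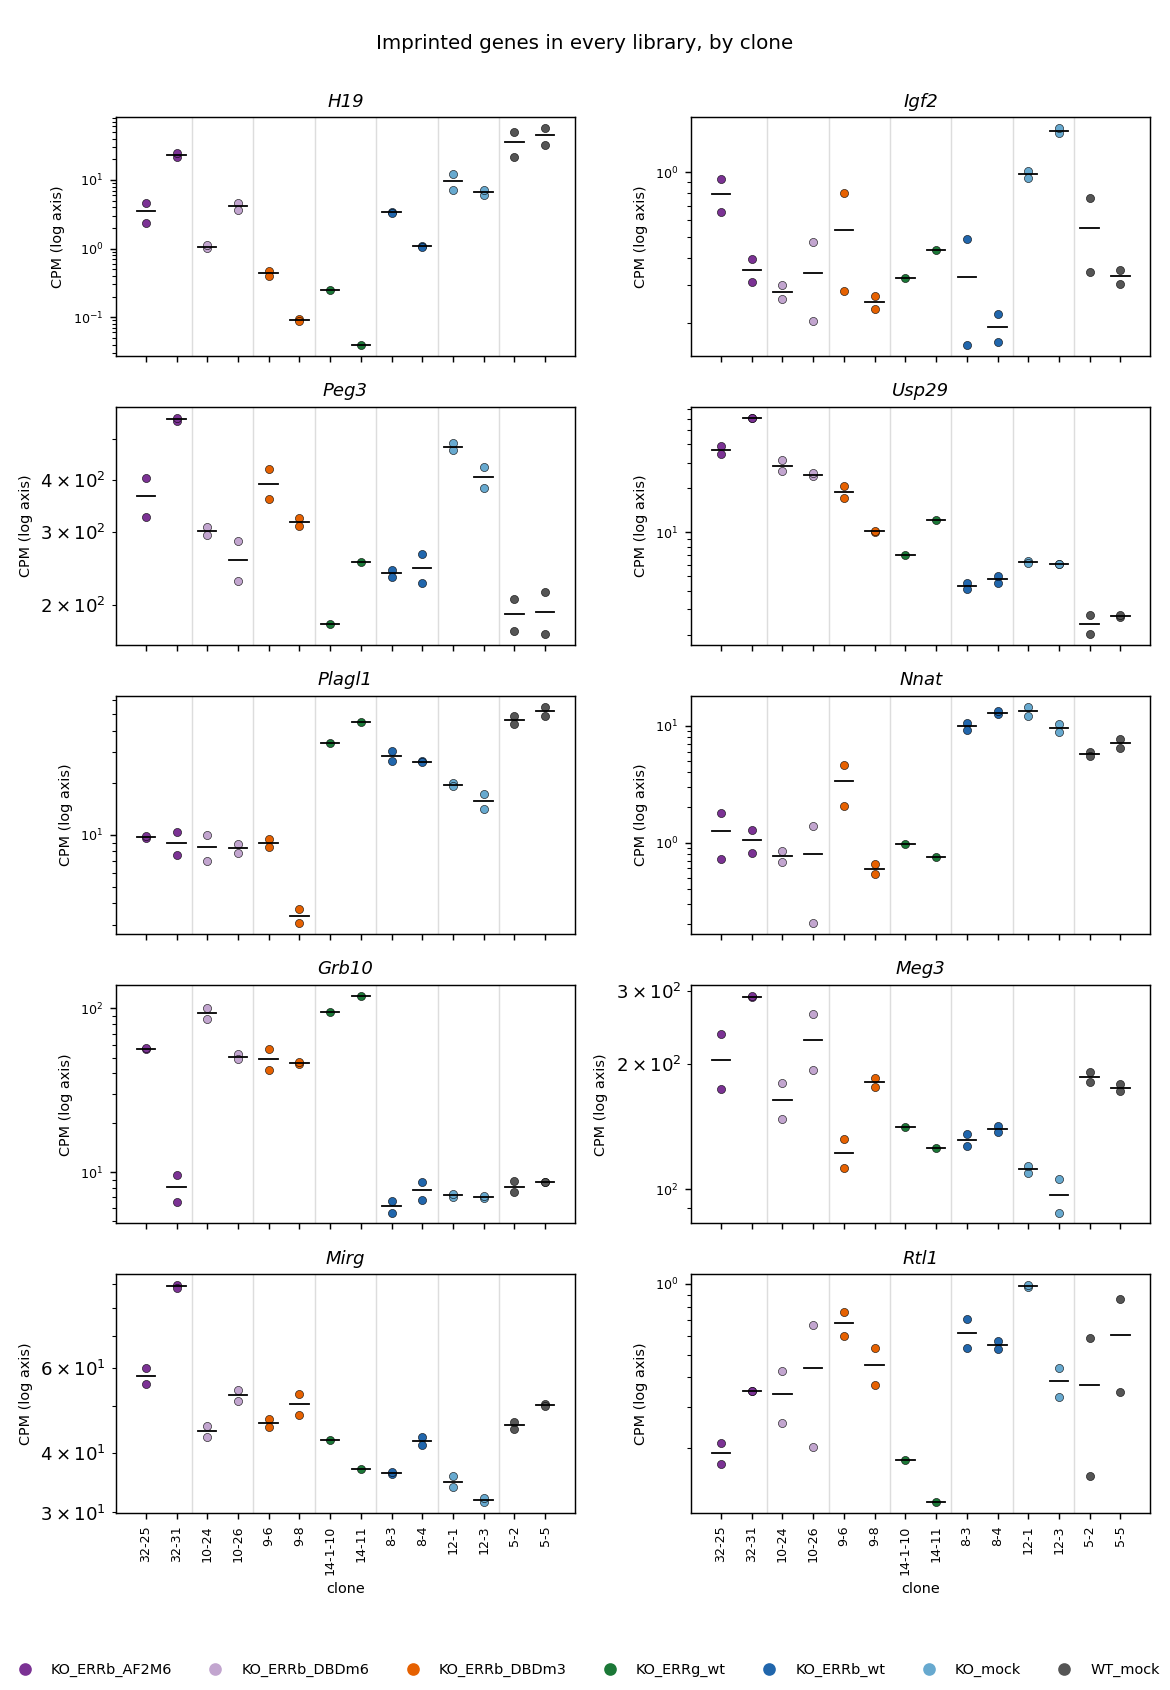
Level of each of the 10 genes in every library (points, CPM on a log axis), by clone along the horizontal axis and coloured by group, with the mean of a clone's libraries as a line. H19 and Plagl1 are lower in all 12 knockout-derived clones than in the 2 WT_mock clones, a separation not counted over all genes. Grb10 is at 8.01 CPM in clone 32-31 but at 56.5 CPM in its partner clone 32-25.

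H19, a maternally expressed long non-coding RNA, lies on chromosome 7 at 142575530-142578146 (mm10, minus strand, 5 exon blocks). It was lower in every knockout-derived clone than in either WT_mock clone. It was at 3.62 and 22.9 CPM in the KO_ERRb_AF2M6 clones, 1.07 and 4.13 CPM in KO_ERRb_DBDm6, and 0.436 and 0.0910 CPM in KO_ERRb_DBDm3. It was at 0.251 and 0.0395 CPM in KO_ERRg_wt, 3.35 and 1.07 CPM in KO_ERRb_wt, and 9.55 and 6.51 CPM in KO_mock, against 34.8 and 45.1 CPM in WT_mock. The 12 knockout-derived clones did not overlap the WT_mock clones, though the WT_mock libraries themselves spread from 21.3 to 56.5 CPM. What share of all genes separates in this way was not counted. The KO_ERRg_wt clone at 0.0395 CPM rested on 1 count, with an exact 95% Poisson interval of 0.000999 to 0.220 CPM that covers counting error only. Over the mean of the 6 knockout-derived groups, H19 fell by 4.53 ± 0.52 on the log2 scale (SE) relative to WT_mock (edgeR quasi-likelihood test, adjusted p = 7.99e-05, 48.5% of all genes called in that comparison). The call held whichever of the 14 clones was left out. In such bulk samples, fewer cells with a transcript and less of it per cell cannot be told apart.

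Within the knockout-derived groups, H19 was lower in KO_ERRg_wt than in KO_mock by a log2 fold change of -5.72 ± 1.34 (edgeR, adjusted p = 0.00695) and in KO_ERRb_DBDm3 by -4.85 ± 1.09 (edgeR, adjusted p = 0.00892). The first call was lost without clone 14-11 and the second without clone 9-6 or clone 9-8. In KO_mock against WT_mock the log2 fold change was -2.32 ± 0.79 (edgeR, adjusted p = 0.0403), and the call was lost when any of the 4 clones was left out (adjusted p from 0.102 to 0.184). H19 in KO_ERRb_wt was below WT_mock by -4.17 ± 0.88 (edgeR, adjusted p = 0.0165, lost without clone 5-2 or 8-4). Its log2 fold change in KO_ERRb_wt against KO_mock was -1.85 ± 0.84 (edgeR, adjusted p = 0.253).

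Igf2, the paternally expressed growth factor that shares an imprinting control region with H19, lies 72.6 kb away on the same strand of chromosome 7 at 142650768-142661035. It was detected at a low level only, with 331 counts over all libraries. KO_mock clones were highest, at 0.978 and 1.56 CPM. The other knockout-derived clones ran from 0.190 to 0.773 CPM, and the WT_mock clones were at 0.539 and 0.330 CPM. Igf2 was higher in KO_mock than in WT_mock by a log2 fold change of 1.54 ± 0.46 (edgeR, adjusted p = 0.0229), a call lost without clone 5-2, 5-5 or 12-3. Relative to KO_mock it was lower in 4 of the 5 receptor groups. The log2 fold change was -2.02 ± 0.48 in KO_ERRb_DBDm6 (edgeR, adjusted p = 0.00633, lost without clone 12-3) and -1.64 ± 0.47 in KO_ERRb_DBDm3 (edgeR, adjusted p = 0.0251, lost without clone 12-3 or 9-8). It was -1.75 ± 0.52 in KO_ERRg_wt (edgeR, adjusted p = 0.0204, lost without clone 12-3, 14-1-10 or 14-11) and -2.30 ± 0.50 in KO_ERRb_wt (edgeR, adjusted p = 0.0452, lost without any of its 4 clones). In KO_ERRb_AF2M6 it was -1.16 ± 0.45 and not called (edgeR, adjusted p = 0.0617). H19 and Igf2 levels were weakly related over the 14 clones, with a Pearson r of 0.30 of log2 CPM, given as a description since clones of a group share their construct.

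Peg3, a paternally expressed zinc finger protein, and Usp29, a paternally expressed member of a deubiquitinase family, are divergent neighbours on chromosome 7 at 6705960-6730419 (minus strand) and 6730583-6967219 (plus strand). Their annotated starts are 164 bases apart and their promoter windows share 263 bases. The RefSeq window of Peg3 (GRCm38.p6, chr7:6730370-6730669, minus strand, 250 bases before to 50 after the start) is shown because it covers the start region of both genes. CpG dinucleotides, the sites of DNA methylation, are in capitals. It holds 13 CpG, against a median of 7 over 32851 such windows.
Peg3: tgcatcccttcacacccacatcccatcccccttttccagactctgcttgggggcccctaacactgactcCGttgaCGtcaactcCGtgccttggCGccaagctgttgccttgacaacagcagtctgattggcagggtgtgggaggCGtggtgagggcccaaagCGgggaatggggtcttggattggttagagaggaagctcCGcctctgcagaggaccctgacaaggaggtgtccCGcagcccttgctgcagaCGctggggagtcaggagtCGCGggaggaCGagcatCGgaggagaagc

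Despite the shared start region, the 2 genes varied by different amounts. Usp29 was at 36.8 and 61.1 CPM in KO_ERRb_AF2M6, 28.7 and 24.9 CPM in KO_ERRb_DBDm6, and 18.9 and 10.2 CPM in KO_ERRb_DBDm3. It was at 7.03 and 12.2 CPM in KO_ERRg_wt, 4.31 and 4.78 CPM in KO_ERRb_wt and 6.28 and 6.10 CPM in KO_mock, against 2.36 and 2.7 CPM in WT_mock. All 12 knockout-derived clones were above both WT_mock clones, and the groups did not overlap one another except KO_ERRb_DBDm3 and KO_ERRg_wt. How many of all genes separate likewise was not counted. Of all genes, 48.5% were called in the knockout-derived groups against WT_mock. Usp29 was higher than in KO_mock by a log2 fold change of 2.98 ± 0.33 in KO_ERRb_AF2M6 (edgeR, adjusted p = 8.98e-05), by 2.11 ± 0.32 in KO_ERRb_DBDm6 (edgeR, adjusted p = 0.000518) and by 1.23 ± 0.32 in KO_ERRb_DBDm3 (edgeR, adjusted p = 0.0175). The first 2 calls held without any single clone, and the KO_ERRb_DBDm3 call was lost without clone 12-1, 12-3 or 9-6. The gene was not called in KO_ERRg_wt (0.63 ± 0.33) or KO_ERRb_wt (-0.44 ± 0.33) against KO_mock. It was higher in KO_mock than in WT_mock by 1.29 ± 0.35 (edgeR, adjusted p = 0.0145, lost without clone 5-2, 12-1 or 12-3).

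Peg3 was at 368 and 560 CPM in KO_ERRb_AF2M6, 302 and 258 CPM in KO_ERRb_DBDm6, and 392 and 317 CPM in KO_ERRb_DBDm3. It was at 181 and 253 CPM in KO_ERRg_wt, 238 and 247 CPM in KO_ERRb_wt and 479 and 403 CPM in KO_mock, against 190 and 195 CPM in WT_mock. KO_mock was above WT_mock by a log2 fold change of 1.20 ± 0.20 (edgeR, adjusted p = 0.00143), a call that held without any single clone. Relative to KO_mock, Peg3 was lower in KO_ERRg_wt by -1.02 ± 0.20 (edgeR, adjusted p = 0.00239) and in KO_ERRb_DBDm6 by -0.66 ± 0.20 (edgeR, adjusted p = 0.0204, lost without clone 12-1 or 10-26). In KO_ERRb_wt the value was -0.86 ± 0.20 (edgeR, adjusted p = 0.0527), and in KO_ERRb_AF2M6, where Usp29 rose, it was 0.07 ± 0.20 (edgeR, adjusted p = 0.797). The difference between the 2 genes in their fold changes was not tested.

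Plagl1, a paternally expressed zinc finger transcription factor, lies on chromosome 10 at 13090788-13131695 (plus strand, 6 exon blocks). Its RefSeq window (GRCm38.p6, chr10:13090582-13090881, plus strand) is printed because Plagl1 was below WT_mock in every knockout-derived clone. It holds 26 CpG (capitals), and 16.9% of all windows have at least as many.
Plagl1: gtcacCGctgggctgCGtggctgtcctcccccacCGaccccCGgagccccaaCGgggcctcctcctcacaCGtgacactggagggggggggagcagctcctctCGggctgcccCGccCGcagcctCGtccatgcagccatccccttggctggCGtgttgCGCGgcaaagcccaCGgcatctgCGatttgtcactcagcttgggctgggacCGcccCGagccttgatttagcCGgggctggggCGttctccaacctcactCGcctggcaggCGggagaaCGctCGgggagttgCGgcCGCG

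Partner clones had Plagl1 levels within 1.32-fold of each other in 6 groups and 2.61-fold apart in KO_ERRb_DBDm3. It was at 9.68 and 8.91 CPM in KO_ERRb_AF2M6, 8.54 and 8.37 CPM in KO_ERRb_DBDm6, and 8.91 and 3.41 CPM in KO_ERRb_DBDm3. It was at 34.2 and 45 CPM in KO_ERRg_wt, 28.5 and 26.4 CPM in KO_ERRb_wt and 19.4 and 15.8 CPM in KO_mock, against 46.3 and 51.9 CPM in WT_mock. All 12 knockout-derived clones were below both WT_mock clones, with KO_ERRg_wt the nearest and the 3 ERR beta mutants, at 3.41 to 9.68 CPM, the farthest. Such separation was not counted over all genes, of which 48.5% were called in the knockout-derived groups against WT_mock. The mean of the knockout-derived groups was below WT_mock by a log2 fold change of -1.76 ± 0.20 (edgeR, adjusted p = 6.51e-05), and KO_mock by -1.48 ± 0.30 (edgeR, adjusted p = 0.00359). Both calls held without any single clone. Plagl1 was lower in each ERR beta mutant than in KO_ERRb_wt, by -1.56 ± 0.30 in KO_ERRb_AF2M6 (edgeR, adjusted p = 0.00197), -1.70 ± 0.31 in KO_ERRb_DBDm6 (edgeR, adjusted p = 0.00138) and -2.14 ± 0.31 in KO_ERRb_DBDm3 (edgeR, adjusted p = 0.000698). These 3 calls also held without any single clone. Against KO_mock the values were -0.92 ± 0.30 in KO_ERRb_AF2M6 (edgeR, adjusted p = 0.0341, lost without any of the 4 clones), -1.06 ± 0.31 in KO_ERRb_DBDm6 (edgeR, adjusted p = 0.0170, lost without clone 12-1, 10-24 or 10-26) and -1.5 ± 0.31 in KO_ERRb_DBDm3 (edgeR, adjusted p = 0.00583, held without any single clone). In KO_ERRg_wt it was higher than in KO_mock by 1.17 ± 0.30 (edgeR, adjusted p = 0.0105, lost without clone 12-3 or 14-11), and in KO_ERRb_wt the value against KO_mock was 0.64 ± 0.30 (edgeR, adjusted p = 0.262).

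Nnat encodes neuronatin, a small membrane proteolipid, and is paternally expressed from within an intron of Blcap. It lies on chromosome 2 at 157560078-157562525 (plus strand) and shares no exonic base with Blcap, which is on the other strand. Its RefSeq window (GRCm38.p6, chr2:157559828-157560127, plus strand) is printed because the gene was at 1.30 CPM or less in 7 of the clones, and it holds 17 CpG (capitals).
Nnat: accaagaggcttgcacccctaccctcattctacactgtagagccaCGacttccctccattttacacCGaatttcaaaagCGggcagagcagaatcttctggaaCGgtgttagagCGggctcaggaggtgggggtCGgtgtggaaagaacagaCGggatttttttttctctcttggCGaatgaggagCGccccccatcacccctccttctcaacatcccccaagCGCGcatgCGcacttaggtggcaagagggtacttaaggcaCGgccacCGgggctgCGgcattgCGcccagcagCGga

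Nnat was low in the groups carrying a mutant ERR beta or ERR gamma and high in the knockout with wild-type ERR beta or with no receptor. It was at 1.30 and 1.03 CPM in KO_ERRb_AF2M6, 0.771 and 0.801 CPM in KO_ERRb_DBDm6, and 3.39 and 0.592 CPM in KO_ERRb_DBDm3. It was at 0.968 and 0.750 CPM in KO_ERRg_wt, 9.89 and 12.9 CPM in KO_ERRb_wt and 13.4 and 9.58 CPM in KO_mock, against 5.69 and 7.07 CPM in WT_mock. The clones at 1.30 CPM or less rested on 19 to 69 counts each. Their libraries could differ widely, at 1.38 and 0.203 CPM in clone 10-26 and at 1.78 and 0.716 CPM in clone 32-25. All 8 mutant and ERR gamma clones were below both WT_mock clones, and all 4 clones of KO_ERRb_wt and KO_mock were above them. The share of all genes with such a split was not counted. Relative to KO_mock, Nnat fell by 3.29 ± 0.55 on the log2 scale in KO_ERRb_AF2M6 (edgeR, adjusted p = 0.000919), by 3.86 ± 0.57 in KO_ERRb_DBDm6 (edgeR, adjusted p = 0.000413), by 2.50 ± 0.52 in KO_ERRb_DBDm3 (edgeR, adjusted p = 0.00582) and by 3.73 ± 0.60 in KO_ERRg_wt (edgeR, adjusted p = 0.000783). All 4 calls held without any single clone. KO_ERRb_wt and KO_mock were close, with a log2 fold change of -0.01 ± 0.47 (edgeR, adjusted p = 0.996). KO_mock against WT_mock was not called (0.85 ± 0.48, edgeR, adjusted p = 0.186).

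Grb10, an adaptor protein that restrains growth factor signalling, is expressed from the maternal allele in most tissues and from the paternal allele in neurons, from different promoters. It lies on chromosome 11 at 11930499-12037420 (minus strand, 18 exon blocks). RefSeq has 2 start windows for it (GRCm38.p6, minus strand), printed because they differ widely in CpG (capitals). The window at chr11:12037371-12037670 holds 45 CpG, a count reached by 1.93% of all windows, and that at chr11:12027922-12028221 holds 9. The gene counts do not say which start was used.
Grb10 upstream start: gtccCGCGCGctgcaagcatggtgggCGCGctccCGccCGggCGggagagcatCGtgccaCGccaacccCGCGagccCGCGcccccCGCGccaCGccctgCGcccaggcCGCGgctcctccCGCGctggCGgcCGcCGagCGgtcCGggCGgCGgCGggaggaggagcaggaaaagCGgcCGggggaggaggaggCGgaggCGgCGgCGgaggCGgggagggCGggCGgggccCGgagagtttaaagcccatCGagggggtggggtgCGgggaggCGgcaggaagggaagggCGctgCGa
Grb10 downstream start: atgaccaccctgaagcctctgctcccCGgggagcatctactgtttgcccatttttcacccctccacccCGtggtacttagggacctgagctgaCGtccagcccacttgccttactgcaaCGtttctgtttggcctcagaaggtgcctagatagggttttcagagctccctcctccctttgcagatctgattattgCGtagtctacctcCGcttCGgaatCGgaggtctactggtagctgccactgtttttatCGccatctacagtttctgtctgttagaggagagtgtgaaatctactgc

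Grb10 was at a high level in 7 clones and at a low level in the other 7. It was at 56.5 and 8.01 CPM in KO_ERRb_AF2M6, 93.7 and 50.7 CPM in KO_ERRb_DBDm6, 49.4 and 46.5 CPM in KO_ERRb_DBDm3, and 95.2 and 119 CPM in KO_ERRg_wt. It was at 6.18 and 7.78 CPM in KO_ERRb_wt and 7.19 and 7.03 CPM in KO_mock, against 8.19 and 8.71 CPM in WT_mock. No clone lay between 8.71 and 46.5 CPM. Clone 32-31 of KO_ERRb_AF2M6, with libraries at 6.56 and 9.58 CPM, was at the level of the groups without a mutant receptor or ERR gamma, while the libraries of its partner 32-25 were at 56.2 and 56.9 CPM. Between these clones the log2 fold change of 32-25 over 32-31 was 2.82 ± 0.15 (edgeR on libraries, adjusted p = 5.64e-10), and it was called whichever library was left out.

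Relative to KO_mock, Grb10 was higher by a log2 fold change of 3.91 ± 0.71 in KO_ERRg_wt (edgeR, adjusted p = 0.00218) and 3.34 ± 0.70 in KO_ERRb_DBDm6 (edgeR, adjusted p = 0.00388), calls that held without any single clone. It was higher by 2.75 ± 0.69 in KO_ERRb_DBDm3 (edgeR, adjusted p = 0.0167), lost when any of the 4 clones was left out (adjusted p from 0.0728 to 0.110). In KO_ERRb_AF2M6 the value was 2.18 ± 0.68 (edgeR, adjusted p = 0.0299), and the call was lost without clone 12-1, 12-3 or 32-25, with an adjusted p of up to 0.730. The spread of the KO_ERRb_AF2M6 clones enters the error of every group comparison, since 1 model was fitted to all groups. KO_ERRb_wt against KO_mock was at -0.03 ± 0.70 and KO_mock against WT_mock at -0.25 ± 0.69, and neither was called.

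Meg3, Mirg and Rtl1 belong to the Dlk1-Meg3 domain on chromosome 12. Meg3 (109540996-109571729, plus strand) and the microRNA host Mirg (109734981-109749457, plus strand) are maternally expressed non-coding RNAs, and Rtl1 (109590169-109595403, minus strand) is a paternally expressed retrotransposon-derived gene antisense to maternal microRNAs. Loss of Meg3 expression is a known event in mouse ESC and induced pluripotent cell lines. No clone lacked it here. Meg3 was at 202 and 292 CPM in KO_ERRb_AF2M6, 164 and 228 CPM in KO_ERRb_DBDm6, and 121 and 181 CPM in KO_ERRb_DBDm3. It was at 141 and 125 CPM in KO_ERRg_wt, 131 and 139 CPM in KO_ERRb_wt and 111 and 97.5 CPM in KO_mock, against 186 and 176 CPM in WT_mock. The lowest clone was thus at 97.5 CPM, in KO_mock.

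Meg3 was lower in KO_mock than in WT_mock by a log2 fold change of -0.79 ± 0.21 (edgeR, adjusted p = 0.0141, lost without clone 5-2 or 12-3) and Mirg by -0.53 ± 0.18 (edgeR, adjusted p = 0.0358, lost without any of the 4 clones). Both were higher in KO_ERRb_AF2M6 than in KO_mock, Meg3 by 1.24 ± 0.21 (edgeR, adjusted p = 0.00114) and Mirg by 1.14 ± 0.18 (edgeR, adjusted p = 0.000605), and these calls held without any single clone. In KO_ERRb_DBDm6, Meg3 was higher than in KO_mock by 0.91 ± 0.21 (edgeR, adjusted p = 0.00571, lost without clone 10-26) and Mirg by 0.55 ± 0.18 (edgeR, adjusted p = 0.0284, lost without clone 12-1, 12-3 or 10-26). In KO_ERRb_DBDm3, Mirg was higher by 0.54 ± 0.18 (edgeR, adjusted p = 0.0445, lost without any of the 4 clones) and Meg3 was not called (0.53 ± 0.21, edgeR, adjusted p = 0.0853). Mirg was at 57.6 and 89.3 CPM in KO_ERRb_AF2M6 and at 31.8 to 52.8 CPM in the other knockout-derived clones, against 45.6 and 50.4 CPM in WT_mock. Meg3 and Mirg moved together over the 14 clones (Pearson r of log2 CPM 0.92), and Rian, the non-coding RNA between them, followed Meg3 (r = 0.97) and Mirg (r = 0.98). Rtl1 stayed between 0.118 and 0.978 CPM and the paternally expressed Dlk1 at or below 0.253 CPM. Rtl1 was lower in KO_ERRg_wt than in KO_mock, with a log2 fold change of -2.16 ± 0.62 (edgeR, adjusted p = 0.0171, lost without clone 12-1, 14-1-10 or 14-11).

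**Figure D2:**
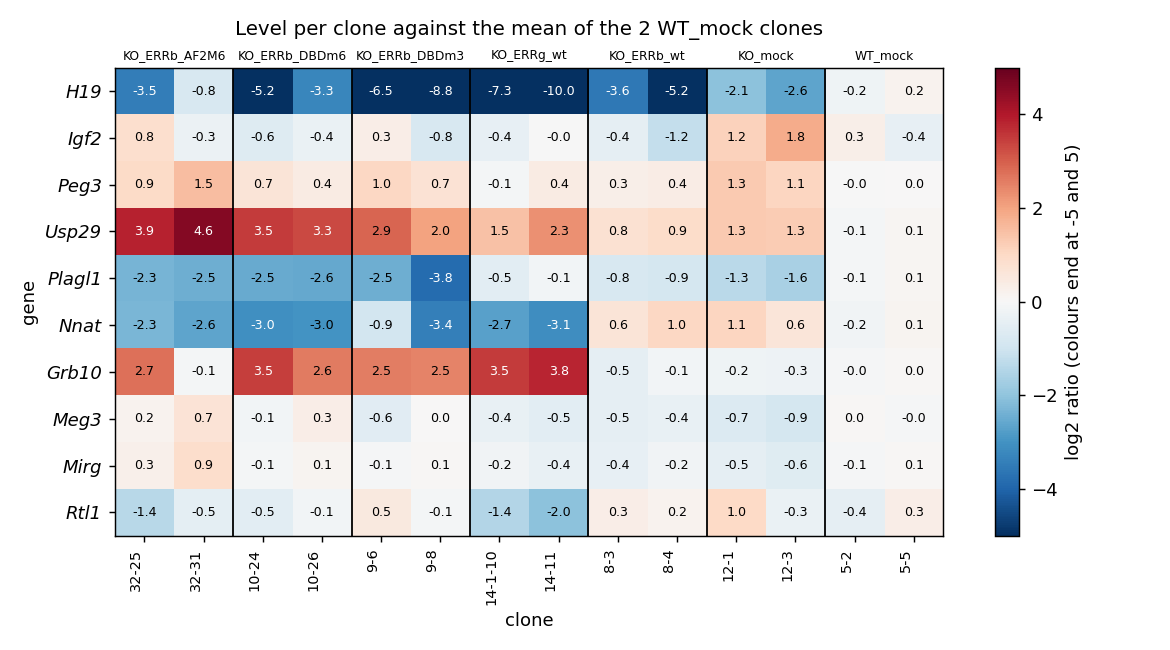
Log2 ratio of each clone's CPM to the mean of the 2 WT_mock clones, with genes down and clones across, grouped by construct (red above and blue below WT_mock, colours ending at -5 and 5). Usp29 is above 0 and H19 and Plagl1 are below 0 in all 12 knockout-derived clones, which was not counted over all genes. Grb10 is at -0.1 in clone 32-31 and at 2.5 to 3.8 in the other 7 clones carrying a mutant ERR beta or ERR gamma.

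The comparisons ask how the levels differ between groups with different receptors, which also differ in chromosome-wide levels, as given below. Against KO_mock, 6 of the 10 genes were called in KO_ERRb_AF2M6 (37.1% of all genes), 8 in KO_ERRb_DBDm6 (41.4%), 7 in KO_ERRb_DBDm3 (25.7%) and 7 in KO_ERRg_wt (38.3%). In KO_ERRb_wt 1 of the 10, Igf2, was called against KO_mock (1.85%) and 1, H19, against WT_mock (10.3%). Against KO_ERRb_wt, 8 were called in KO_ERRb_AF2M6 (43.2%), 4 in KO_ERRb_DBDm6 (39.0%), 4 in KO_ERRb_DBDm3 (32.1%) and 4 in KO_ERRg_wt (25.4%). KO_mock against WT_mock gave 7 (37.4%), and the mean of the knockout-derived groups against WT_mock gave 6 (48.5%). For KO_ERRb_DBDm6 and KO_ERRb_DBDm3 against KO_ERRb_wt, the share of the 10 genes called was near that of all genes. It was also near that share for KO_ERRb_wt and for the mean of the knockout-derived groups against WT_mock. These comparisons share controls, so their counts are not independent. The median log2 fold change of the 10 genes against KO_mock was 0.40 in KO_ERRb_AF2M6, -0.72 in KO_ERRb_DBDm6, -0.28 in KO_ERRb_DBDm3, -0.38 in KO_ERRg_wt and -0.12 in KO_ERRb_wt, while that of all genes was 0.01 or less in each.

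Against KO_ERRb_wt the 3 mutants shared calls for Usp29, Plagl1, Nnat and Grb10. Usp29 was higher by a log2 fold change of 3.43 ± 0.34 in KO_ERRb_AF2M6, 2.56 ± 0.33 in KO_ERRb_DBDm6 and 1.68 ± 0.33 in KO_ERRb_DBDm3. Nnat was lower by -3.28 ± 0.54, -3.85 ± 0.57 and -2.49 ± 0.52 in the same order. The other 4 calls of KO_ERRb_AF2M6 were higher levels of H19 (2.58 ± 0.84, lost without clone 8-4 or 32-31), Peg3 (0.94 ± 0.20), Meg3 (0.87 ± 0.21, lost without clone 32-31) and Mirg (0.90 ± 0.18). The Grb10 calls were lost without clone 8-3, 8-4 or 32-25 in KO_ERRb_AF2M6 and without clone 8-3, 9-6 or 9-8 in KO_ERRb_DBDm3. In KO_ERRg_wt, Nnat was lower than in KO_ERRb_wt by -3.72 ± 0.60 (edgeR, adjusted p = 0.00136) and Grb10 higher by 3.94 ± 0.71 (edgeR, adjusted p = 0.00354), while Plagl1 was not called (0.53 ± 0.29, edgeR, adjusted p = 0.215). Its other 2 calls were Usp29 (1.07 ± 0.34, lost without clone 8-3, 8-4 or 14-11) and Rtl1 (-1.94 ± 0.62, lost without any of the 4 clones). The chromosomes of the 10 genes (2, 7, 10, 11 and 12) had median log2 fold changes of -0.05 to 0.09 over the 12 comparisons. Against KO_mock, chromosome 6 was at -0.96 in KO_ERRb_AF2M6, -0.93 in KO_ERRb_DBDm6, -0.63 in KO_ERRb_DBDm3, -0.38 in KO_ERRg_wt and 0.01 in KO_ERRb_wt. Chromosome 8 was at -0.55, -0.49, -0.53, -0.53 and 0.01 in the same order. Against WT_mock, chromosome 14 was at -0.61 in KO_mock and -0.55 in the mean of the knockout-derived groups. Effects of the receptor and of these chromosome-wide differences cannot be told apart in these groups.

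**Figure D3:**
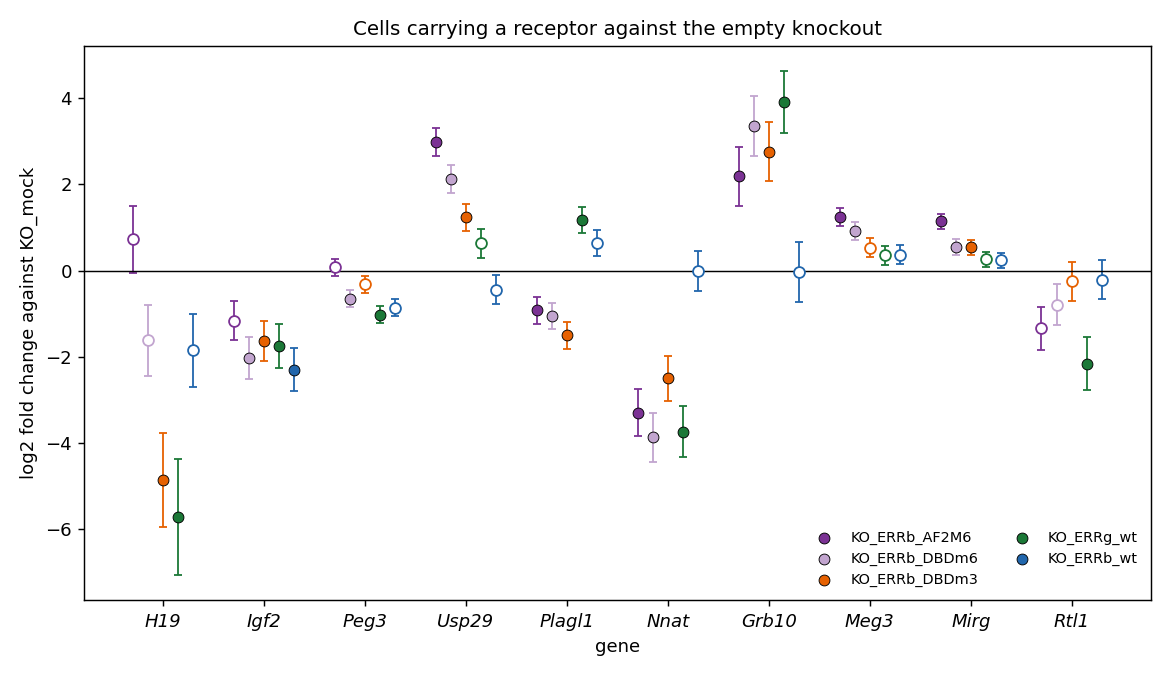
Log2 fold change of each gene in the 5 receptor groups against KO_mock, with standard errors as bars. Filled points were called at an adjusted p under 0.05 and open points were not. Nnat is between -2.50 and -3.86 and Grb10 between 2.18 and 3.91 in the 3 mutants and KO_ERRg_wt, while both are near 0 in KO_ERRb_wt.

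Partner clones of a group were compared on their libraries, so that the error is the spread between libraries of 1 clone. Between the KO_ERRb_AF2M6 clones, 6 of the 10 genes were called (12.5% of all genes). Clone 32-25 was higher than 32-31 in Grb10, as given above, and lower in H19 by a log2 fold change of -2.68 ± 0.41 (edgeR, adjusted p = 0.000595), Usp29 by -0.73 ± 0.10 (edgeR, adjusted p = 2.39e-05), Mirg by -0.62 ± 0.06 (edgeR, adjusted p = 4.26e-07) and Peg3 by -0.61 ± 0.13 (edgeR, adjusted p = 0.00607, lost without library 2 of 32-25). Meg3, at -0.51 ± 0.15 (edgeR, adjusted p = 0.0335), lost its call without library 1 of 32-25 or either library of 32-31. H19 libraries were at 4.65 and 2.36 CPM in clone 32-25 and at 21.4 and 24.5 CPM in clone 32-31, where they were within the range of the WT_mock libraries.

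Between the KO_ERRb_DBDm3 clones 4 of the 10 were called, as were 32.7% of all genes. Clone 9-6 was higher than 9-8 in Nnat by 2.50 ± 0.54 (edgeR, adjusted p = 0.00198), Plagl1 by 1.39 ± 0.18 (edgeR, adjusted p = 4.7e-06) and Usp29 by 0.90 ± 0.12 (edgeR, adjusted p = 2.89e-06), and lower in Meg3 by -0.57 ± 0.15 (edgeR, adjusted p = 0.00861, lost without library 1 of 9-6 or library 2 of 9-8). Nnat libraries were at 4.64 and 2.04 CPM in 9-6 and at 0.650 and 0.534 CPM in 9-8. In KO_ERRb_DBDm6, edgeR called 1 of the 10 (0.555% of all genes), Grb10, which was higher in 10-24 than in 10-26 by 0.88 ± 0.13 (edgeR, adjusted p = 0.00134), a call lost without library 2 of 10-26. DESeq2 called 2 of the 10 in this pair. H19 (-1.94 ± 0.61), Meg3 (-0.48 ± 0.15) and Mirg (-0.25 ± 0.06) had unadjusted p-values under 0.05 there but adjusted ones of 0.229, 0.216 and 0.0818 (edgeR), so 4 of the 10 and 1587 of all 14962 genes were under that unadjusted limit. None of the 10 was called between the clones of KO_ERRg_wt (0.0134% of all genes), KO_ERRb_wt (2.85%), KO_mock (0.0535%) or WT_mock (0.835%) with edgeR. The count of the 10 at an unadjusted p under 0.05 was 4 in KO_ERRg_wt (351 of all 14962 genes), 2 in KO_ERRb_wt (3099), 2 in KO_mock (862) and 1 in WT_mock (2152). In KO_ERRb_wt and WT_mock that is near the share of all genes. DESeq2 called 1 of the 10 in KO_ERRb_wt and 0 in the other 3 groups. The KO_ERRg_wt clones have 1 library each and were assumed to vary like the others.

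A wider list of 59 imprinted genes was drawn up, of which 58 were in the table and 49 passed the filter. KO_mock against WT_mock called 19 of the 49, 10 higher and 9 lower, with a median log2 fold change of 0.07. That is near the share of all genes called in this comparison (37.4%). The largest rises were in the chromatin protein gene Sfmbt2 (2.25 ± 0.32, edgeR, adjusted p = 0.000644), Peg12 (2.12 ± 0.36, edgeR, adjusted p = 0.00148) and the calcitonin receptor gene Calcr (1.74 ± 0.52, edgeR, adjusted p = 0.0222). The largest falls were in the amino acid transporter gene Slc38a4 (-1.98 ± 0.33, edgeR, adjusted p = 0.00147), Ppp1r9a (-0.89 ± 0.20, edgeR, adjusted p = 0.00578) and Copg2 (-0.69 ± 0.15, edgeR, adjusted p = 0.0047). In KO_ERRb_DBDm6 against KO_mock the lowest called genes were Nap1l5 (-3.93 ± 0.58), Calcr (-3.39 ± 0.66) and Mest (-2.21 ± 0.61), all on chromosome 6, whose 736 genes had a median log2 fold change of -0.93 in that comparison. Slc38a4 was among the highest called genes in KO_ERRg_wt (3.25 ± 0.34), KO_ERRb_DBDm6 (1.60 ± 0.33) and KO_ERRb_DBDm3 (1.27 ± 0.32) against KO_mock.

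In 5 groups partner clones differed in the Kcnq1ot1 domain of chromosome 7, where the paternally expressed non-coding RNA Kcnq1ot1 silences its neighbours on the same allele. In 4 of them Phlda2, Cdkn1c and Slc22a18 were all called. Phlda2, a placental growth regulator, was at 11.8 and 1.69 CPM in KO_ERRb_AF2M6 clones 32-25 and 32-31 and at 16.2 and 0.991 CPM in KO_ERRb_wt clones 8-3 and 8-4. It was at 5.30 and 0.584 CPM in KO_mock clones 12-1 and 12-3, and at 8.89 and 0.391 CPM in WT_mock clones 5-2 and 5-5. In each pair the second clone was lower. The log2 fold changes of the first clone over the second were 2.81 ± 0.24 in KO_ERRb_AF2M6 (edgeR on libraries, adjusted p = 5.22e-08), 4.02 ± 0.25 in KO_ERRb_wt (edgeR, adjusted p = 7.57e-09), 3.18 ± 0.32 in KO_mock (edgeR, adjusted p = 1.05e-05) and 4.48 ± 0.32 in WT_mock (edgeR, adjusted p = 1.73e-08). The cell cycle inhibitor gene Cdkn1c was at 10.8 and 1.80 CPM, 8.53 and 1.5 CPM, 10.6 and 1.82 CPM, and 6.03 and 1.61 CPM in the same 4 pairs. Kcnq1ot1 itself ran the other way, at 210 and 333 CPM, 144 and 317 CPM, 226 and 306 CPM, and 114 and 241 CPM in these pairs. It was called in KO_ERRb_AF2M6 (-0.67 ± 0.15, edgeR, adjusted p = 0.00919), KO_ERRb_wt (-1.13 ± 0.16, edgeR, adjusted p = 0.00226) and WT_mock (-1.07 ± 0.16, edgeR, adjusted p = 0.00337) but not in KO_mock. In the fifth group, KO_ERRb_DBDm3, Phlda2 was at 13.3 and 6.85 CPM in clones 9-6 and 9-8 (0.97 ± 0.19, edgeR, adjusted p = 0.00052). Slc22a18 (0.53 ± 0.15, edgeR, adjusted p = 0.00999) and Ascl2 (1.54 ± 0.27, edgeR, adjusted p = 0.000181) were also higher in 9-6, while Cdkn1c (0.10 ± 0.15) and Kcnq1ot1 (-0.24 ± 0.16) were not called. In that pair 32.7% of all genes were called. Phlda2 was at 17.1 and 13.7 CPM in the KO_ERRb_DBDm6 clones and 13.3 and 17.6 CPM in KO_ERRg_wt, and neither pair was called. The difference between clones was thus present within WT_mock as well as within knockout-derived groups.

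**Figure D4:**
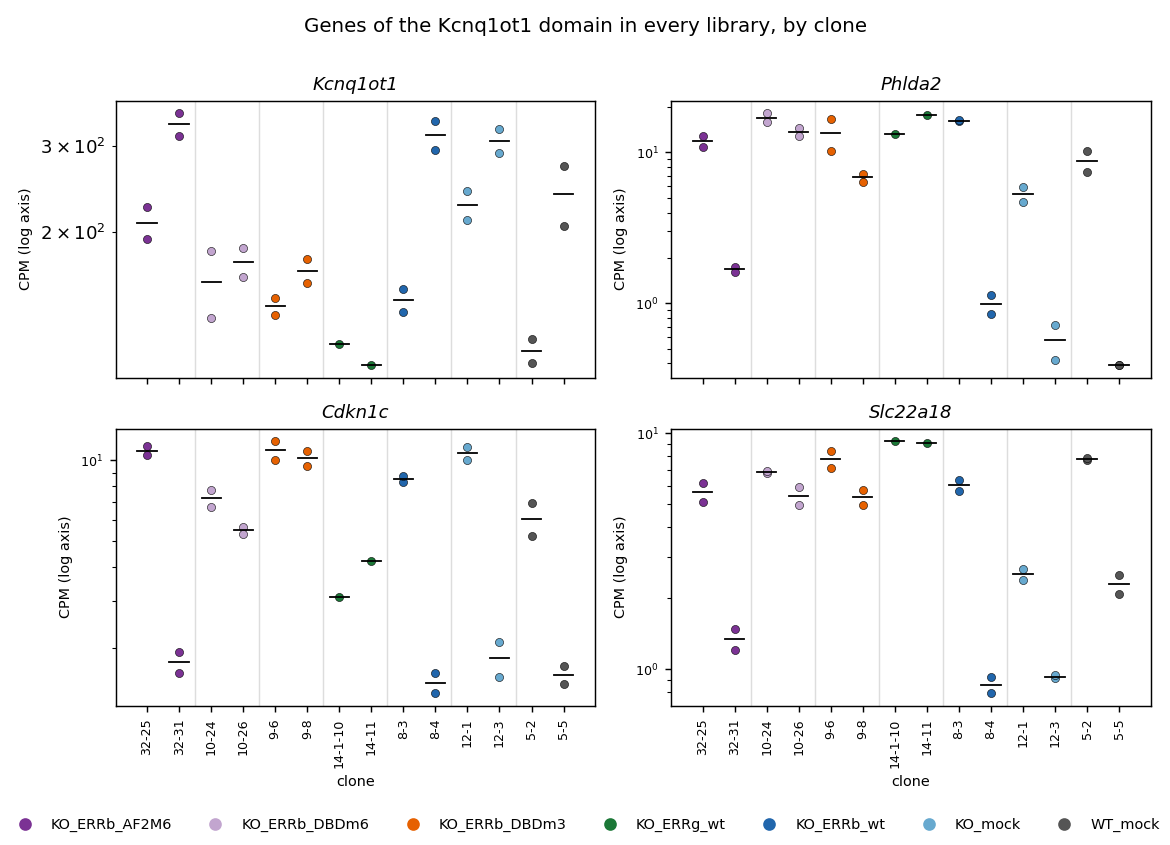
Kcnq1ot1, Phlda2, Cdkn1c and Slc22a18 in every library (points, CPM on a log axis), by clone and coloured by group, with the mean of a clone's libraries as a line. In clones 32-31, 8-4, 12-3 and 5-5 Kcnq1ot1 is at 333, 317, 306 and 241 CPM and Phlda2 at 1.69, 0.991, 0.584 and 0.391 CPM.

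Other imprinted genes also differed between partner clones. Mest, on chromosome 6, was at 128 CPM in KO_ERRb_wt clone 8-3 and 678 CPM in clone 8-4, a log2 fold change of -2.40 ± 0.20 (edgeR, adjusted p = 1.7e-05). It was also higher in KO_ERRb_DBDm3 clone 9-6 than in 9-8 (0.64 ± 0.20, edgeR, adjusted p = 0.0231), a pair with 32.7% of all genes called. In that pair Sgce (1.15), Peg10 (1.12), Copg2 (0.51) and Herc3 (0.48) of chromosome 6 were called higher too. Asb4 (1.11), Nap1l5 (0.84) and Ppp1r9a (-0.12) of that chromosome were not called. Whether chromosome 6 dosage differs between these clones was not tested. Gnas was at 71.9 CPM in clone 32-25 and 22.6 CPM in clone 32-31 (1.66 ± 0.12, edgeR, adjusted p = 4.88e-08), and its antisense partner Nespas ran the other way (-0.46 ± 0.07, edgeR, adjusted p = 0.000111). Snrpn, whose counts are those of Snurf, with which it shares exons, was at 111 and 212 CPM in the WT_mock clones 5-2 and 5-5 (-0.94 ± 0.06, edgeR, adjusted p = 5.76e-09). It was called between the clones of 4 more groups, with log2 fold changes of the first clone over the second of -0.40 in KO_ERRb_AF2M6, 0.37 in KO_ERRb_DBDm3, -0.70 in KO_ERRb_wt and 0.74 in KO_mock, so that the direction differed between groups. Ddc, the neighbour of Grb10, was at 6.43 and 4.77 CPM in clones 32-25 and 32-31 and was not called between them.

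Of 14 genes that keep, set or remove imprints, 6 were higher and 2 lower in the knockout-derived groups than in WT_mock, beside 48.5% of all genes called, and the median log2 fold change was 0.06 against -0.02 over all genes. Zfp57, which binds methylated imprinted regions and keeps their methylation in ESCs, was at 142 to 285 CPM in the 12 knockout-derived clones, against 456 and 402 CPM in WT_mock (-1.05 ± 0.09, edgeR, adjusted p = 1.72e-05). Dppa3, a factor that shields maternal methylation in the zygote, was at 66.8 to 269 CPM in knockout-derived clones, against 39.7 and 46.1 CPM in WT_mock (1.69 ± 0.25, edgeR, adjusted p = 0.000368). Dnmt3l, the cofactor of the de novo methyltransferases, was at 11.1 and 15.5 CPM in KO_ERRg_wt and at 342 and 349 CPM in KO_mock, against 89.9 and 109 CPM in WT_mock. Whether these levels bear on the imprinted genes was not tested.

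The 13 RefSeq windows of 8 of the 10 genes were searched on both strands for TGCCGC, the core bound by ZFP57, and AAGGTCA, the core of the site bound by ERR receptors. TGCCGC was in 5 windows (Plagl1, Nnat, the upstream start of Grb10, and 1 each of Igf2 and Meg3) and is in 11.6% of all windows. That core contains a CpG, and these 5 windows hold 13 to 45 CpG each. The median over all windows is 7, and the shares were not matched for CpG. AAGGTCA was in 1, the second window of Meg3, and is in 4.72% of all windows. A match is a description of the letters and not of binding. H19 and Rtl1 were not searched.

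The tested genes whose log2 CPM followed each gene most closely over the 14 clones were chosen by Pearson r. H19 was closest to Mir675, which shares 84 exonic bases with it (r = 0.97). For Plagl1 the closest were Hymai, which shares 180 exonic bases with it (0.98), Parp4 and Pygm, and for Nnat they were Ptgs1 (0.99), Rgs19 and Wnt5b. For Grb10 they were Pgrmc1 (0.94), Neo1 and Ndufb5, for Usp29 Mta2 (0.98), Crlf3 and Rhpn2, and for Peg3 Tgif2 (0.97), Nup54 and Usf1. Igf2 was closest to Plekha1 (0.79) and Rtl1 to the predicted gene AV051173 (0.87). Among the 10 themselves, Nnat and Grb10 had an r of -0.82 and Peg3 and Usp29 an r of 0.61. The clones share groups, so these values describe the set of libraries.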

How the data were processed

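Ribosomal RNA-depleted, strand-specific libraries were read as single ends of 100 bp, per the labels' protocols. STAR (2.7.8a) and mm10 are named in the submitters' processing notes. The deposited table gives the authors' read counts per gene from featureCounts. Its version is 2.0.1 in the file's header line and 2.0.10 in the notes. The header's command counts reverse-strand reads, counts a read for every gene it overlaps and leaves out reads with several alignments. The growth protocol names LIF in the medium and the design text does not, so its presence is not settled.

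Counts of a clone's libraries were summed to 14 clones (25103562 to 54105869 counts). Genes were filtered with filterByExpr, scaled by TMM (0.972 to 1.05) and tested by edgeR's robust quasi-likelihood test (4.0.16, R 4.3.3), fitting 1 mean for each group (15238 genes, 7 residual degrees of freedom). Partner clones were tested in a second model on the 26 libraries with 1 mean per clone (14962 genes, 12 residual degrees of freedom). P-values were adjusted by Benjamini-Hochberg over all tested genes and called under 0.05. They measure the spread between clones, or between libraries of a clone that nothing says came from separate cultures. The SE is the size of the log2 fold change divided by the root of F, and CPM uses TMM-scaled totals. Intervals cover counting error only. On simulated counts for KO_mock against WT_mock (14978 genes), 87.9% of 2-fold and 96.8% of 4-fold changes were called, and for the WT_mock clones (14471 genes) 78.7% and 86.5%. Every simulated gene was given the same spread, so these shares need not hold for more variable genes such as H19, Nnat and Grb10.

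The 10 genes and all lists were chosen with earlier results of these data known. All 10 are named. Of the wider imprinted list, up to 3 called genes with the highest and 3 with the lowest fold change were named per comparison described, with genes of the domains described. The 3 genes most alike each of the 10 are by Pearson r, passing over numbered predicted genes. Kcnq1ot1, Phlda2, Cdkn1c, Slc22a18, Ascl2, Snrpn, Mest, Gnas and Nespas, and the maintenance genes named, were picked after their values were seen. Alternatives were RLE factors, no filter, DESeq2 (1.42.0), fits of only the groups compared, limma (3.58.1) on libraries, the library number as a block, and leaving out each clone or library.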

Additional observations from a re-analysis of the deposited data

Results flagged for a closer look

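In 6 groups the 4 libraries were checked for 1 library standing apart, gene by gene, which made 60 checks. Of these 5 passed the critical value. For 4 independent values chance passes about 1 in 20, or 3 of 60. The libraries come in pairs from the same clone, so that rate need not apply here. Plagl1 in KO_ERRb_wt had its highest library, of clone 8-3, at 30.4 CPM, the others being at 26.3 to 26.7 CPM. Igf2 in KO_ERRb_DBDm3 had 1 library of clone 9-6 at 0.798 CPM, the others being at 0.232 to 0.280 CPM, and Igf2 in WT_mock had 1 library of clone 5-2 at 0.756 CPM, the others being at 0.304 to 0.352 CPM. Grb10 in WT_mock had its lowest library, of clone 5-2, at 7.52 CPM, the others being at 8.69 to 8.80 CPM, and Usp29 in WT_mock had its lowest library, also of clone 5-2, at 2.02 CPM, the others being at 2.65 to 2.74 CPM.

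The construct was the same in partner clones but the level was not, by the edgeR test of the difference between clones, in 11 cases. Of all genes, 12.5% were called in the KO_ERRb_AF2M6 pair, 32.7% in the KO_ERRb_DBDm3 pair and 0.555% in the KO_ERRb_DBDm6 pair. The KO_ERRb_DBDm3 cases are thus near the share of all genes. In KO_ERRb_AF2M6, the log2 fold changes of clone 32-25 over 32-31 were 2.82 for Grb10, -2.68 for H19, -0.73 for Usp29, -0.62 for Mirg, -0.61 for Peg3 and -0.51 for Meg3. In KO_ERRb_DBDm3, those of clone 9-6 over 9-8 were 2.50 for Nnat, 1.39 for Plagl1, 0.90 for Usp29 and -0.57 for Meg3. In KO_ERRb_DBDm6, that of clone 10-24 over 10-26 was 0.88 for Grb10. The cause of these differences was not tested.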

How the results depend on the processing

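No fold change of the 10 genes reversed its call under any alternative run. Each gene in each comparison gave 1 outcome, called or not called. RLE size factors left 189 of 190 outcomes as they were, with 0 calls lost and 1 gained. DESeq2 left 179 of 190, with 1 lost and 10 gained. No filter on low counts left 167 of 190, with 14 lost and 9 gained. Counts of called genes that moved by over 1.5 times were as follows, and the cause was not tested. With DESeq2, KO_ERRb_wt against KO_mock gave 2 in place of 1, KO_ERRb_wt against WT_mock 2 in place of 1, the KO_ERRb_DBDm6 clones 2 in place of 1 and the KO_ERRb_wt clones 1 in place of 0. With no filter, KO_ERRb_DBDm3 against KO_mock gave 4 in place of 7, KO_ERRb_wt against WT_mock 0 in place of 1, and the clone comparisons gave 4 in place of 1 (KO_ERRb_DBDm6), 1 in place of 0 (KO_ERRb_wt), 2 in place of 0 (KO_ERRg_wt) and 1 in place of 0 (KO_mock). Fitting only the 2 groups compared gave 2 for KO_ERRb_DBDm3 against KO_mock and 2 against KO_ERRb_wt (4), 4 for KO_ERRb_wt against KO_mock and 6 against WT_mock.

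Leaving out each clone in turn gave 3 to 4 for KO_ERRb_DBDm3 against KO_mock, 4 to 7 for KO_ERRb_DBDm6 against KO_mock, 3 to 6 for KO_ERRg_wt against KO_mock and 2 to 3 against KO_ERRb_wt, 0 for KO_ERRb_wt against KO_mock, 0 to 1 for KO_ERRb_wt against WT_mock, and 2 to 4 for KO_mock against WT_mock. Leaving out each library gave 0 to 2 for the KO_ERRb_DBDm6 clones. Libraries of different clones share only a number in their titles. Over 66 pairs of clones the correlation of same-numbered deviations ran from -0.143 to 0.409, and 9 pairs were over 0.1. With limma on libraries kept apart, KO_ERRb_wt gave 3 against KO_mock and 2 against WT_mock, and with the replicate block also 3 and 2. The block changed none of 60 outcomes, called or not called, between partner clones.

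The main limits are the 2 clones per group, whose making is not described, and low counts. Low counts concern Igf2, Rtl1, and Nnat in most mutant ERR beta and ERR gamma clones. They also concern H19 in KO_ERRb_DBDm3, KO_ERRg_wt and clones 8-4 and 10-24, at 1 to 51 counts per clone. Allelic expression and methylation were not analysed here. Plain library totals moved a level by at most 1.04 times.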
